A study of Mus musculus with 20 samples.

Results

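The 9 genes described here were followed in mouse mammary tumours: the homeodomain-interacting protein kinases Hipk1, Hipk2 and Hipk3, the tumour suppressor gene Trp53, its regulators Mdm2 and Mdm4, and the p53 target genes Cdkn1a, Ccng1 and Zmat3. They are 9 of the 38947 genes that could be named in the deposited table, and all 9 were among the 19844 genes with enough reads to be tested. Each gene is represented by its transcript with the highest total over the 20 libraries. Hipk2 was picked because its level was higher with letrozole in these same tumours, so its letrozole difference is given as a description with no test, and the other 8 genes were chosen around it by pathway.

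Bulk RNA-seq was done on 20 tumours grown from SSM3 cells in the mammary gland of 129S6/SvEv hosts, which were 2 to 4 months old, with treatment started when tumours had reached about 150 mm3. SSM3 is a single mouse mammary tumour line, so all tumours share 1 origin and the hosts keep their own immune system. The 5 vehicle tumours came from sham-operated mice given daily 5% ethanol in saline for 25 days, and the 5 anti-PD-1 tumours from mice treated the same way that also had 250 µg of antibody against the checkpoint receptor PD-1 on days 3, 5 and 7 after surgery. The 5 letrozole tumours came from ovariectomised mice given the aromatase inhibitor letrozole at 1 mg/kg daily for 25 days, and the 5 letrozole + anti-PD-1 tumours from mice that had both. No mouse had ovariectomy without letrozole or the reverse, so the pair cannot be told apart and "letrozole" stands for both from here on. The labels do not say which tumours shared a cage, litter or day. The p-values of differences set a difference against the spread between tumours within these groups.

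HIPK2 is a serine/threonine kinase of the nucleus that can phosphorylate p53 after DNA damage and takes part in Wnt, Notch and TGF-beta signalling, while HIPK1 and HIPK3 are close relatives with overlapping roles. p53 is a transcription factor held at low levels by the ubiquitin ligase MDM2, with its relative MDM4 binding p53 as well. When p53 accumulates it raises the transcription of genes for cell cycle arrest, DNA repair and cell death, and of Mdm2 itself, which closes a feedback loop. Much of this control acts on protein, which was not measured here.

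Between 12456356 and 31301954 reads per library fell on the kept transcripts, and the shallowest library was anti-PD-1 replicate 1. Values are normalised counts, which are reads per transcript scaled by a factor for each library. Anti-PD-1 replicate 1 and vehicle replicate 3 lay farthest from the other tumours of their groups, with an SD over 19844 genes of 1.39 and 1.10 log2 units against 0.71 to 1.04 in the other 18, and some results below are also given without both. Markers of luminal epithelium (Krt8, Krt18, Epcam and 5 others) were all detected in every library, with a summed level of 238057 to 330421 normalised counts. In bulk tumours, fewer cells of a type and less RNA per cell cannot be told apart.

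The promoters are shown first as a description, and no promoter feature was tested against expression. RefSeq promoter windows (GRCm38.p6, 250 bases before to 50 after a start) were found for 8 of the 9 genes, 12 windows in all. The 250 bases before the Hipk2 start (chr6:38876191-38876440, minus strand) are shown because Hipk2 is the gene with the large difference. Capitals mark GC boxes (GGGCGG on either strand), of which there were 5, some overlapping. The 250 bases before the upstream Cdkn1a start (chr17:29090729-29090978, plus strand) and before the Ccng1 start (chr11:40755287-40755536, minus strand) are shown with a p53 response element in capitals.
Hipk2: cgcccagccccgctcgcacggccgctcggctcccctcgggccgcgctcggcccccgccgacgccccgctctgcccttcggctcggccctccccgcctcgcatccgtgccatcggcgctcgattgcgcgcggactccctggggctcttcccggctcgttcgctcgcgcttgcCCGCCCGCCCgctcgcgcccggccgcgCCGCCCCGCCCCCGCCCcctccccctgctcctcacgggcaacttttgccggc
Cdkn1a: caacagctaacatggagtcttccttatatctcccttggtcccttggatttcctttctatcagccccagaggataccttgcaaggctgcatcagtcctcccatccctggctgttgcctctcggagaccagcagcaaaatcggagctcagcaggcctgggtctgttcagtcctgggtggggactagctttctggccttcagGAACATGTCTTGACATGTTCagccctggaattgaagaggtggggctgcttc
Ccng1: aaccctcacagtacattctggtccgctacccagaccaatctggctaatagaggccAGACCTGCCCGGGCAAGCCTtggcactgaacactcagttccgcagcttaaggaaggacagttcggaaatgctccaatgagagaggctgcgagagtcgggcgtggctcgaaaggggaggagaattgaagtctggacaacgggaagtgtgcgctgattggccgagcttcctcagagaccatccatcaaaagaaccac

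The p53 response element was searched as 2 adjoining 10-base half-sites of the consensus with no spacer and at most 1 mismatch in the 20 bases. It was found in 2 of the 12 windows, those of Cdkn1a and Ccng1, each with 1 mismatch, and in 29 of 32851 windows of all genes (0.0883%). The Cdkn1a element lies in the window whose start is 2802 bases before that of the kept transcript, and the window at the kept transcript's own start holds none. Of the windows nearest the kept transcripts' starts, those of Hipk2 and Hipk3 were 80.7% and 76.0% G and C and that of Hipk1 51.0%, against a median of 52.7% over all windows. A second Hipk1 window, 288 bases away, was at 72.0%, and a second Hipk2 window at 51.3%. At least 1 GC box was present in 35.7% of all windows, searched over the full window. The number of boxes per window was not counted over all genes. Among the members' other windows, 2 GC boxes lay before the start in each of those of Hipk3, Mdm2 and the kept Cdkn1a transcript. The rest, with the second Hipk2 window, had 0 before the start. The palindromic consensus of the oestrogen response element, searched on both strands with at most 1 mismatch, was in none of the 12 windows and in 0.877% of all. No match says only that these letters are not in the window.

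Hipk2 was higher in every tumour with letrozole than in any without it. In vehicle tumours its normalised counts were 4163, 3407, 5608, 4637 and 4625, and in anti-PD-1 tumours 4566, 3619, 4971, 4263 and 4650.5. In letrozole tumours they were 8563, 7222, 11198, 10687 and 9731, and in letrozole + anti-PD-1 tumours 9820, 7763, 10192, 10737 and 9522. The lowest of the 10 letrozole-treated tumours, at 7222, was above the highest of the 10 others, at 5608, so the groups did not overlap in either antibody arm. Hipk2 was picked from these values, and the share of all genes without overlap was not counted. Full separation was not particular to Hipk2. Lrrc8b, Irx3os, Hspa2, Sorl1 and Rcbtb2, picked below as most like Hipk2, also had no overlap in either arm. Lrrc8b was at 1524 or less in tumours without letrozole and at 1804.4 or more in those with it. Of the listed genes named below, Ephx1 and Xpc also had no overlap between letrozole and vehicle. Chek1 and Plk2 had none in the anti-PD-1 arm.

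The mean Hipk2 level was 4488 ± 801 normalised counts (SD, n = 5) in vehicle and 9480.2 ± 1613 in letrozole tumours, a fold of 2.11 and a log2 difference of 1.08 with a standard error of 0.14. With anti-PD-1 the means were 4414 ± 511 and 9607 ± 1126, a fold of 2.18 and a log2 difference of 1.12 with the same standard error. These differences chose the gene and carry no test. The antibody contrasts did not choose it: Hipk2 differed by -0.01 log2 units between anti-PD-1 and vehicle (95% interval -0.30 to 0.27) and by 0.03 between letrozole + anti-PD-1 and letrozole (-0.25 to 0.31), with an adjusted p of 1.0 in both by limma. The letrozole difference with the antibody exceeded that without it by 0.04 log2 units (standard error 0.19).

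**Figure D1:**
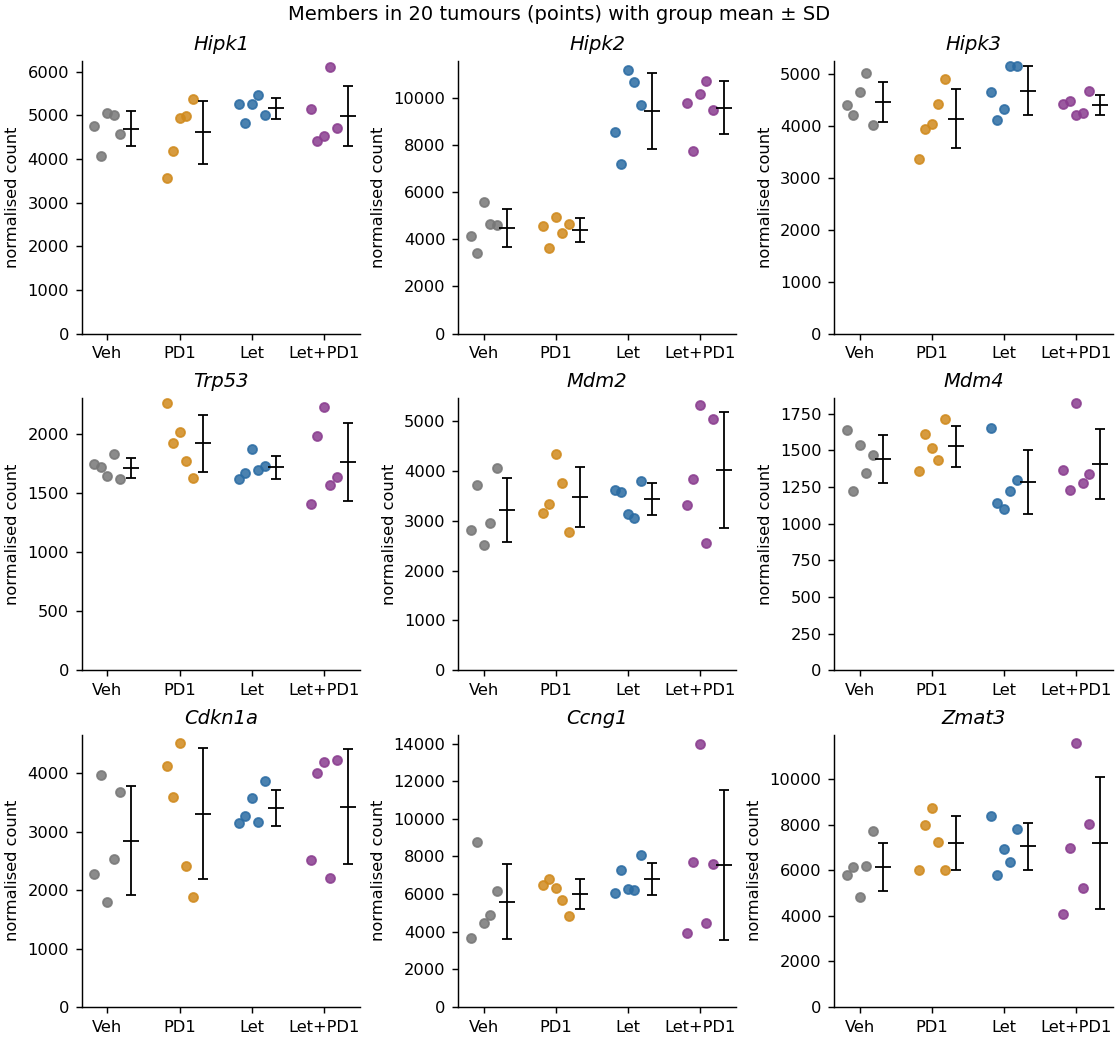
Normalised counts (y axis, from 0) of the 9 genes in each tumour (points) of the vehicle (Veh), anti-PD-1 (PD1), letrozole (Let) and combined (Let+PD1) groups, with the mean ± SD of 5 tumours beside them. For Hipk2, which was picked from these values, the 10 tumours with letrozole lie between 7222 and 11198 and the others between 3407 and 5608. The groups of every other gene shown overlap.

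The table holds 7 Hipk2 transcripts, and all had reads. The kept transcript, Hipk2-206, is protein-coding and 7684 bases long. The protein-coding Hipk2-204 had means of 2846 in vehicle and 6094 in letrozole tumours, and the shortest, a processed transcript of 654 bases, had 367 and 703. The other 4 also had higher means in both letrozole groups than in both groups without it. Transcripts of a gene share reads, so the 7 are not separate measurements and do not show which isoform was made. No exon of another annotated gene overlaps the kept Hipk2 transcript.

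**Figure D2:**
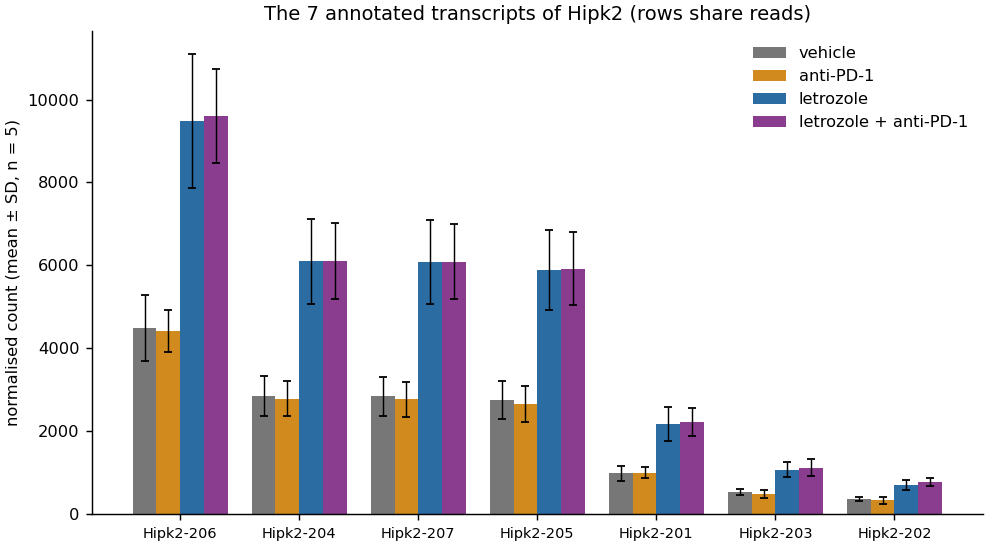
Mean normalised count ± SD (bars from 0, n = 5 tumours) of the 7 Hipk2 transcripts in the 4 groups. In all 7 the bars of the letrozole and letrozole + anti-PD-1 groups are above those of the vehicle and anti-PD-1 groups, as for Hipk2-206 with 9480.2 against 4488.

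For the relatives Hipk1 and Hipk3 no difference passed the test. Hipk1 counts were 4744, 4064, 5048, 5009 and 4564 in vehicle tumours and 5247, 4822, 5249.8, 5457 and 5002 in letrozole tumours. With anti-PD-1 they were 3563, 4171, 4931, 4991 and 5367, and with both agents 5147, 4413, 4522, 6113 and 4705. The groups overlapped in both arms. The log2 difference of Hipk1 was 0.14 for letrozole against vehicle (95% interval -0.09 to 0.37, limma adjusted p 0.595) and 0.12 in the anti-PD-1 arm (-0.11 to 0.34, adjusted p 0.674). About 9.2% of the exon bases of the kept Hipk1 transcript are overlapped by Gm15886 on the opposite strand, and whether strand was used when counting is not stated, so reads of the pair cannot be told apart there.

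Hipk3 ranged from 4023 to 5015 normalised counts in vehicle tumours, 4121 to 5158 in letrozole, 3369.7 to 4904 in anti-PD-1 and 4215 to 4679.9 in letrozole + anti-PD-1 tumours. These ranges overlapped throughout. Its log2 difference was 0.07 for letrozole against vehicle (-0.13 to 0.27, limma adjusted p 0.803) and 0.10 in the anti-PD-1 arm (-0.10 to 0.30, adjusted p 0.686).

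Per kilobase of transcript, the 3 kinases were at like levels without letrozole. In vehicle tumours the means were 590 normalised counts per kilobase for Hipk1, 584 for Hipk2 and 598 for Hipk3, closer together than the SD of any of the 3 between tumours (50.4 to 104). In letrozole tumours Hipk2 was at 1234 ± 210, against 649 ± 31.0 for Hipk1 and 628 ± 63.4 for Hipk3. The per-kilobase ratio of Hipk2 to Hipk1 within a tumour was 0.866 to 1.15 in vehicle, 0.883 to 1.32 in anti-PD-1, 1.55 to 2.20 in letrozole and 1.82 to 2.33 in letrozole + anti-PD-1 tumours. The ratio holds the values that chose Hipk2 and is given as a description.

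Trp53, which encodes p53, did not pass the test in any comparison. Its normalised counts ran from 1618 to 1826 in vehicle, 1626 to 2259.9 in anti-PD-1, 1619 to 1873 in letrozole and 1405 to 2225 in letrozole + anti-PD-1 tumours, with overlap in all pairs of groups. The letrozole difference was 0.005 log2 units against vehicle (95% interval -0.22 to 0.23, limma adjusted p 0.993) and -0.13 in the anti-PD-1 arm (-0.36 to 0.10, adjusted p 0.631).

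Mdm2, the p53 ligase and itself a p53 target, had normalised counts of 2821, 3714, 2511, 2962 and 4061 in vehicle tumours and 3608, 3583, 3138, 3050.4 and 3798 in letrozole tumours. In anti-PD-1 tumours they were 3152, 3327, 4338, 3758 and 2765, and with both agents 3322, 3831, 5326, 2562 and 5032. The highest 2 values of all 20 tumours were replicates 3 and 5 of the combined group, which also held a low value, so that group had the widest spread (SD 1160 against 324 to 648). The log2 difference for letrozole was 0.11 without the antibody (-0.25 to 0.48, limma adjusted p 0.823) and 0.18 with it (-0.19 to 0.54, adjusted p 0.699).

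Mdm4, the relative that binds p53 without ligase activity of its own, was the member with the lowest level per kilobase, at 203 ± 22.9 normalised counts per kilobase in vehicle tumours. Its counts ran from 1219.7 to 1638 in vehicle and from 1101 to 1654 in letrozole tumours, and from 1358 to 1714 with anti-PD-1 and 1226 to 1820.0 with both agents. The mean was lower with letrozole in both arms, by a log2 difference of -0.18 (-0.43 to 0.08, limma adjusted p 0.551) and -0.13 (-0.38 to 0.13, adjusted p 0.687), within the spread between tumours.

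Cdkn1a encodes the cyclin-dependent kinase inhibitor p21, the main effector of p53-driven arrest. Its counts were 2277, 3962, 1791, 2524 and 3686 in vehicle tumours and 3139.7, 3265, 3584, 3164 and 3863 in letrozole tumours. With anti-PD-1 they were 4126, 3599, 4525.5, 2410.2 and 1886, and with both agents 2514, 3995.5, 4198, 2209 and 4223. All letrozole tumours lay inside the vehicle range, and their coefficient of variation was 9.17% against 28.7% to 34.0% in the other 3 groups, a difference in spread that was not tested. The log2 difference was 0.32 for letrozole against vehicle (-0.20 to 0.83, limma adjusted p 0.600) and 0.07 in the anti-PD-1 arm (-0.44 to 0.59, adjusted p 0.929). The transcript AC167363.2 on the opposite strand overlaps 12.5% of the kept Cdkn1a exon bases.

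Ccng1, which encodes cyclin G1, had counts of 3676, 8772, 4459.6, 4894 and 6145.5 in vehicle tumours and 6065, 7284, 6292, 6223 and 8057 in letrozole tumours. With anti-PD-1 they were 6464, 6817, 6324, 5668 and 4808, and with both agents 3951, 7727, 13962, 4488 and 7582. Replicate 3 of the combined group held the highest value, and the groups overlapped. The log2 difference was 0.34 without the antibody (-0.21 to 0.88, limma adjusted p 0.596), the largest of the 8 genes in that contrast, and 0.19 with it (-0.36 to 0.73, adjusted p 0.803).

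Zmat3, whose product is an RNA-binding zinc finger protein, had counts of 5785, 6153, 4819, 6205 and 7746 in vehicle tumours and 8383, 5803, 6925, 6381 and 7799 in letrozole tumours. With anti-PD-1 they were 6036, 7974, 8751.5, 7229 and 6003, and with both agents 4092, 6999.6, 11591, 5207 and 8043.5. The highest value was again in replicate 3 of the combined group, and that group also held the lowest. The log2 difference was 0.20 without the antibody (-0.22 to 0.63, limma adjusted p 0.701) and -0.08 with it (-0.51 to 0.35, adjusted p 0.904).

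Of the 8 genes other than Hipk2, 0 passed limma's test for letrozole against vehicle, where 0.957% of all genes passed. The count was also 0 for letrozole + anti-PD-1 against anti-PD-1 (1.07% of all genes), and 0 for letrozole averaged over both arms (7.0% of all genes), where the adjusted p ran from 0.309 for Mdm4 to 0.839 for Zmat3. In each of these 3 comparisons 0 of the 8 had an unadjusted p under 0.05, against 13.8%, 13.4% and 22.9% of all genes, and edgeR and DESeq2 on the recovered reads each called 0. Their median log2 difference averaged over both arms was 0.11, against 0.03 for all genes. For anti-PD-1 against vehicle and for letrozole + anti-PD-1 against letrozole, 0 of 9 passed, with 0.0% of all genes passing by limma and 0 of the 9 at an unadjusted p under 0.05. For the difference between the letrozole effects with and without the antibody, 0 of the 8 passed, again with 0.0% of all genes. edgeR and DESeq2 called 0 members in these 3 contrasts as well, while over all genes limma had 539, 627 and 392 at an unadjusted p under 0.05, edgeR called 0 and DESeq2 called 5, 9 and 4.

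**Figure D3:**
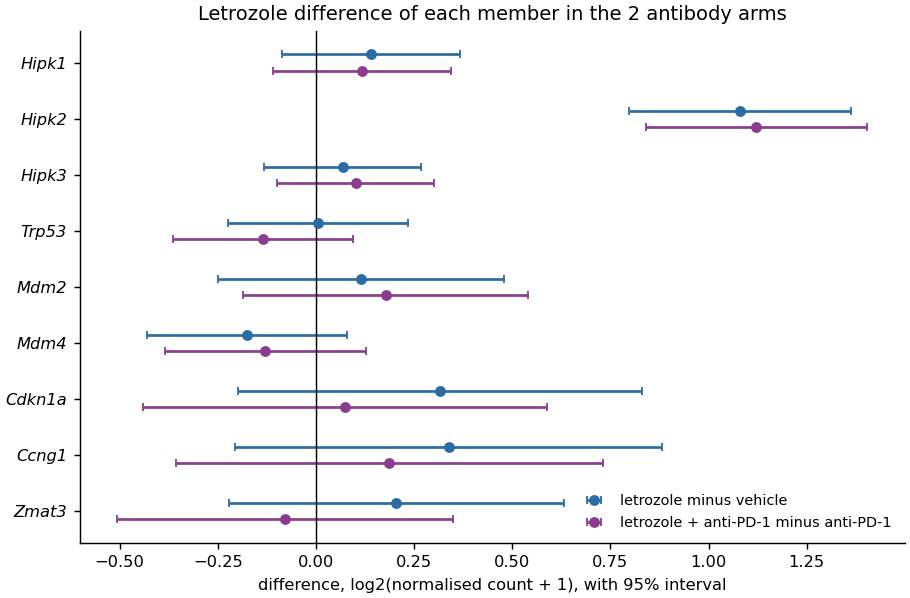
Difference with letrozole in log2(normalised count + 1) (x axis) for each of the 9 genes, without (letrozole minus vehicle) and with anti-PD-1, with 95% intervals from limma. Hipk2 lies at 1.08 and 1.12, and the intervals of the other 8 genes all include 0. Hipk2 was picked for these differences, so its own intervals are a description and no test.

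A wider set of p53 targets was counted for comparison, 42 listed genes of which 41 could be tested. Averaged over both arms, 1 rose with letrozole and 0 fell (3.29% and 3.71% of all genes rose and fell). Of the 41, 31 were above 0, where 10735 of all 19844 genes were. The median log2 difference was 0.18 against 0.03 over all genes. The gene that rose was Plk2, a polo-like kinase induced by p53, with means of 2954 ± 686 in vehicle, 2870.3 ± 534 in anti-PD-1, 3702 ± 611 in letrozole and 4785 ± 1446 in combined tumours. Its log2 difference was 0.53 (95% interval 0.25 to 0.80, limma adjusted p 0.0183). Counted in either direction, edgeR called 1 of the 41 and DESeq2 called 5, where they called 1296 and 1966 of all 19844 genes. Without the antibody and with it, each arm alone gave 0 by limma.

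By function, the 14 targets in arrest, feedback and survival had a median of 0.23, with 10 above 0. Of the 14, limma and edgeR called 1 each and DESeq2 3 in either direction, against 1389, 1296 and 1966 of all 19844 genes. For the counts above 0 here, 10735 of all 19844 genes were above 0. The 14 apoptosis targets had a median of 0.08 with 9 above 0 and 0 called; the 2 with the smallest p were Bbc3, which encodes the cell death protein PUMA, at 0.35 (limma adjusted p 0.192), and Ei24 at 0.19 (0.240). The 13 tested targets in DNA repair and metabolism had a median of 0.19 with 12 above 0. Of these, limma and edgeR called 0 and DESeq2 called 2, Xpc and Ephx1, where DESeq2 called 1966 of all 19844 genes. Xpc, a damage sensor of nucleotide excision repair, was at 0.23 (limma adjusted p 0.0668, DESeq2 0.0484). It passed limma's test with array weights (adjusted p 0.0184), without vehicle replicate 3 (0.0495), without anti-PD-1 replicate 1 (0.0342) and without both tumours (log2 difference 0.26, 0.0262). Ephx1, an epoxide hydrolase, was at 0.52 (limma adjusted p 0.145, DESeq2 0.0356), and passed limma's test without letrozole + anti-PD-1 replicate 1 (0.0336). By arm, the Ephx1 difference was 0.88 without the antibody (limma adjusted p 0.173) and 0.15 with it (0.866). Its values in the combined tumours ran from 789 to 3530 normalised counts. Trp53cor1 was at or under 9.7 normalised counts in every library and was not tested.

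Among 22 regulators of p53, 1 fell and 0 rose averaged over both arms, near the 3.71% of all genes that fell. It was Chek1, a checkpoint kinase of S phase, with means of 553 ± 87.5 in vehicle, 541 ± 72.0 in anti-PD-1, 413 ± 69.6 in letrozole and 410.0 ± 34.3 in combined tumours (log2 difference -0.41, 95% interval -0.60 to -0.21, limma adjusted p 0.013). The median of the 22 was -0.005. Of 13 partners of HIPK2 and factors in its turnover, 1 rose where 3.29% of all genes did. It was Pml, whose product organises the nuclear bodies in which HIPK2 can be found. Its means were 727 ± 127, 702 ± 55.5, 941 ± 112 and 859 ± 120 in vehicle, anti-PD-1, letrozole and combined tumours (log2 difference 0.33, 0.15 to 0.52, adjusted p 0.0274). This call was lost without vehicle replicate 1 (adjusted p 0.0558), anti-PD-1 replicate 4 (0.0509) or letrozole replicate 4 (0.0544), with no filter on low values (0.0526) and with library median centring (0.0575).

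Of the 10 tested HIPK and DYRK relatives 0 passed, with a median of -0.11 and 9 below 0, where 9109 of all 19844 genes were below 0. edgeR and DESeq2 called 0 of them, and 0 had an unadjusted limma p under 0.05, against 22.9% of all genes. The 2 relatives with the smallest p in any contrast were the splicing kinases Clk1 and Clk3. For Clk1 that was anti-PD-1 against vehicle, at 0.32 log2 units (limma unadjusted p 0.0596). Its averaged letrozole difference was -0.12 (limma adjusted p 0.563). For Clk3 it was the averaged letrozole difference, at -0.15 (limma adjusted p 0.310). Of the p53 relatives, Trp73 was under the filter. Trp63, which basal mammary cells also express, had 4.8 to 312 normalised counts in letrozole tumours, 0 to 5.6 in vehicle, 0 to 22.1 in anti-PD-1 and 0 to 16.5 in combined tumours, with a limma adjusted p of 0.0886 averaged over both arms (0.038 with array weights, and 0.00624 by DESeq2). The summed level of 6 basal epithelial markers was likewise 580.5 to 19035 in letrozole against 239 to 2463 in vehicle tumours; its part in the Trp63 values was not tested.

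The members also varied between tumours of the same group. With group means subtracted, the 36 pairs of members were correlated over the 20 tumours, and p-values came from 100000 permutations within groups, adjusted over the 36. All 6 pairs among Mdm2, Cdkn1a, Ccng1 and Zmat3 were positive and passed. Pearson's r was 0.798 for Mdm2 and Zmat3 (Spearman's rho 0.845; permutation adjusted p 0.0128 and 0.0036). It was 0.773 for Mdm2 and Cdkn1a (rho 0.756; permutation adjusted p 0.0128 and 0.0132). Within single groups of 5 tumours r was positive for 5 of the 6 pairs in every group, and ran from -0.085 to 0.982 for Ccng1 and Zmat3.

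The remaining 4 pairs of that set had a Pearson's r of 0.762 (Mdm2 and Ccng1, rho 0.798), 0.756 (Ccng1 and Zmat3, rho 0.662), 0.750 (Cdkn1a and Ccng1, rho 0.827) and 0.638 (Cdkn1a and Zmat3, rho 0.636), with permutation adjusted p of 0.0272, 0.0283, 0.00684 and 0.0283. Without the 2 tumours farthest from the median of the first gene, r was 0.480 for Ccng1 and Zmat3, which rests on replicates 1 and 3 of the combined group, and 0.598 to 0.777 for the other 5 pairs. Without replicate 3 of the combined group alone, Ccng1 and Zmat3 had an r of 0.597 (permutation adjusted p 0.113). Leaving out 1 tumour took the permutation adjusted p to 0.05 or more in 6 of 20 cases for that pair (replicates 1 to 5 of the combined group and anti-PD-1 replicate 5). It did so in 5 of 20 for Cdkn1a and Zmat3 (vehicle replicate 3, anti-PD-1 replicates 3 and 5, and replicates 1 and 2 of the combined group, up to 0.0761) and in 2 of 20 for Mdm2 and Ccng1 (anti-PD-1 replicate 5 and replicate 2 of the combined group, up to 0.058). The other 3 pairs kept a permutation adjusted p of 0.0462 or less. Trp53 itself had r from 0.364 for Mdm2 to 0.654 for Ccng1 with these targets, and permutation adjusted p of 0.055 or more in all 4 pairs. Without replicates 1 and 3 of the combined group, r with Trp53 was 0.117 for Mdm2, 0.318 for Ccng1, 0.1 for Zmat3 and 0.579 for Cdkn1a.

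**Figure D4:**
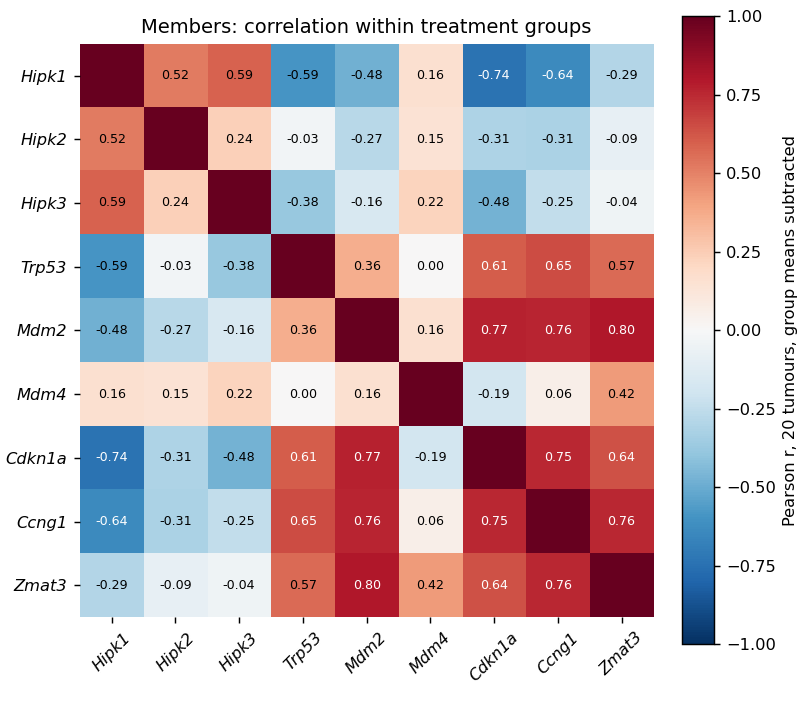
Pearson's r between each pair of the 9 genes over 20 tumours after subtracting group means (colour scale and printed values). The block of Mdm2, Cdkn1a, Ccng1 and Zmat3 holds values of 0.638 to 0.798, and Hipk1 with Cdkn1a is at -0.741.

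No pair of Hipk2 with a p53 pathway gene passed. Its r was -0.306 with Cdkn1a, -0.314 with Ccng1, -0.274 with Mdm2, -0.085 with Zmat3 and -0.025 with Trp53 (permutation adjusted p 0.352 or more). Hipk1 and Hipk2 had an r of 0.517 (rho 0.573; permutation adjusted p 0.0491 and 0.0379), and Hipk1 and Hipk3 0.591 (rho 0.519; 0.0491 and 0.0958). Neither was secure: leaving out 1 tumour took the permutation adjusted p to 0.05 or more in 16 and 15 of 20 cases, up to 0.167 (r 0.433, without vehicle replicate 2) and 0.202 (r 0.393, without anti-PD-1 replicate 1). Without that tumour and vehicle replicate 3, Hipk1 and Hipk3 had an r of 0.371 (permutation adjusted p 0.266).

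Hipk1 ran opposite to Cdkn1a and Ccng1. Its r was -0.741 with Cdkn1a (rho -0.692; permutation adjusted p 0.0221 and 0.0379) and -0.637 with Ccng1 (rho -0.729; 0.0224 and 0.00552). Both depended on the scaling: with each library centred on its median, r was -0.473 (permutation adjusted p 0.203) and -0.442 (0.188). Without letrozole + anti-PD-1 replicate 4 the first had an adjusted p of 0.0627 (r -0.689), and without vehicle replicate 2 the second had 0.0602 (r -0.58).

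The 41 other p53 targets were then set against Cdkn1a and Hipk2. With group means subtracted, 16 of 41 had an r over 0.5 with Cdkn1a, against 4.44% of all genes. With Hipk2 0 of 41 did, near the 2.04% of all genes. The median r was 0.42 with Cdkn1a and -0.08 with Hipk2, against -0.038 and 0.004 over all genes. Without subtracting group means, which keeps the treatment difference, the medians were 0.36 and 0.222, against -0.025 and 0.039. The targets closest to Cdkn1a were Bbc3 (r 0.875), Sesn2 (0.844) and the cell death gene Bax (0.809), and the farthest was Sesn1 (-0.642). The points share their libraries and scaling, and these values are a description.

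**Figure D5:**
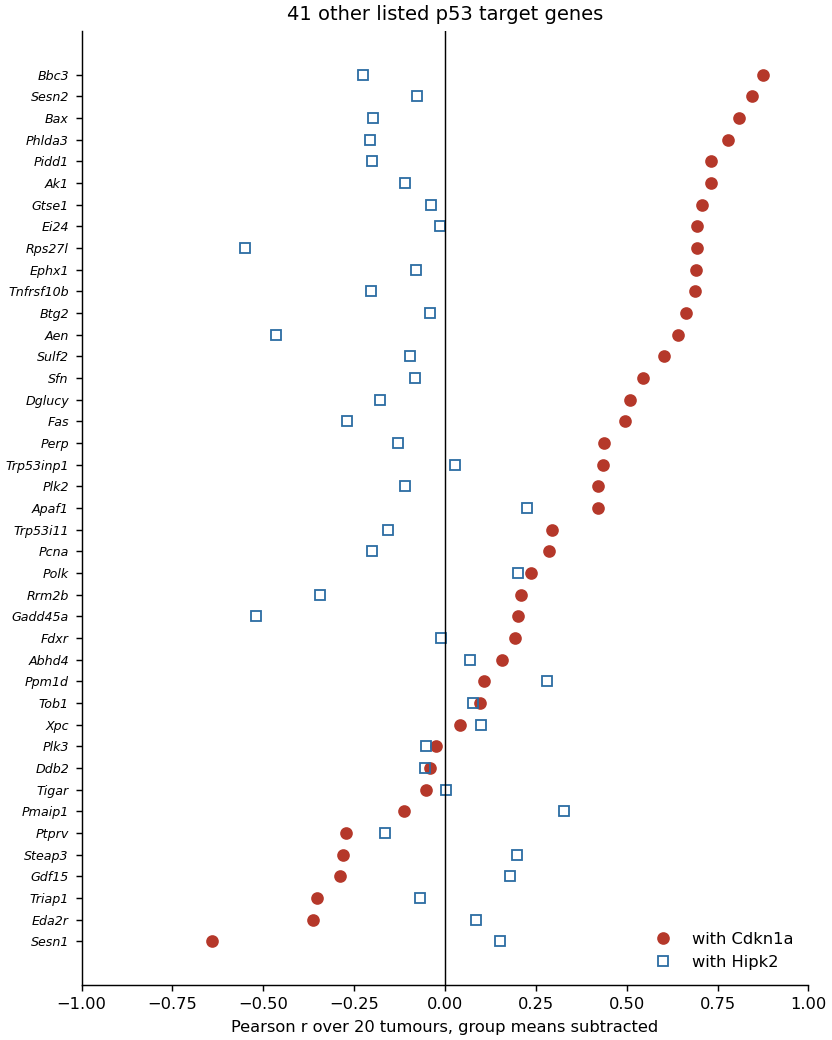
Pearson's r of each of the 41 tested p53 targets with Cdkn1a and with Hipk2 over 20 tumours after subtracting group means. With Cdkn1a 16 targets lie over 0.5, against 4.44% of all genes. With Hipk2 none does, near the 2.04% of all genes.

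Over all 20 libraries the genes most like Hipk2 were Lrrc8b (Pearson's r 0.935), Irx3os (0.934), Hspa2 (0.919), Sorl1 (0.915) and Rcbtb2 (0.912), an order that includes the treatment difference itself. With group means subtracted they were Notch2 (0.828), which encodes a Notch receptor, Hspa2 (0.799), Parp12 (0.791), Tln1 (0.777) and Fgd3 (0.766). The genes most like Cdkn1a were Ly6a (0.858), Bbc3 (0.853), Ltbp1 (0.843), Ercc5 (0.821) and Trim7 (0.809), and with group means subtracted Ly6a (0.907), Dpp3 (0.887), Trim7 (0.877), Ltbp1 (0.876) and Bbc3 (0.875). Each r is over 20 libraries and was picked as the highest among all tested genes.

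The mean log2 level of the 8 luminal markers was 14.49 ± 0.09 in vehicle and 14.72 ± 0.10 in letrozole tumours, and that of the 8 macrophage markers 8.79 ± 1.23 and 9.73 ± 0.42. It was 5.60 ± 1.15 and 8.21 ± 2.45 for basal, 9.81 ± 1.76 and 10.76 ± 0.87 for fibroblast, and 3.59 ± 1.17 and 4.58 ± 1.30 for T cell markers. It was 4.68 ± 2.72 and 5.90 ± 1.99 for adipocyte, 2.06 ± 0.26 and 4.40 ± 2.25 for skeletal muscle, and 8.90 ± 0.93 and 9.23 ± 0.39 for endothelial markers. Averaged over both arms, limma called 2 luminal markers and 0 of the other 7 lists, where it called 7.0% of all genes. edgeR also called 4 skeletal muscle markers, and DESeq2 2 basal and 4 skeletal muscle markers. Over all 19844 genes they called 1296 and 1966. The median log2 difference of the basal markers was 2.715 without the antibody and 0.184 with it. For skeletal muscle markers it was 2.118 and 0.3. With group means subtracted, Hipk2 had an r of 0.046 with the luminal and 0.308 with the macrophage mean, and between -0.183 and 0.189 with the other 6 marker lists. Cdkn1a had an r of 0.559 with the luminal mean, the highest of the 9 genes, and Mdm4 one of -0.567. The part of cell composition in the differences was not tested.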

How the data were processed

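Bulk RNA-seq of 20 tumours was analysed from 1 table of 127442 Ensembl transcripts. STAR 2.7.10a, DESeq2 and the build GRCm39 (mm39) are named per the submitters' processing notes. Not given in the sources used here: counter, annotation release, strand setting and filters. The deposited values are a signal, read counts that the authors divided by a size factor per library, and 100% were whole reads once multiplied back (tolerance 0.001) (size factors 0.472 to 1.46). GENCODE vM21 named 118889 transcripts (93.3%), and 8553 without a name were left out. After 49 shared symbols were dropped, 38947 genes remained, each represented by its transcript with the highest total.

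The test was limma 3.58.1 with a trend on log2(value + 1), 1 fit of 4 group means over 20 libraries (16 residual degrees of freedom), genes with at least 10 in at least 5 libraries, two-sided, Benjamini-Hochberg over 19844 genes at 0.05. Fold changes are on that scale. R 4.3.3, edgeR 4.0.16 and DESeq2 1.42.0 served as alternatives, with other pseudocounts, filters, scalings, transcripts and libraries. The code was tested on simulated data. The members and gene lists were chosen with earlier results of these data known. Named genes were the 9 members, those past the threshold in each list (otherwise the 2 with the smallest p), and the 5 most like Hipk2 and Cdkn1a. The correlations and their alternatives were chosen after seeing the data. The replicate numbers of the groups did not pair the tumours.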

Additional observations from a re-analysis of the deposited data

Results flagged for a closer look

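In 1 of 36 combinations of gene and group, a single tumour stood apart from the other 4. In replicate 3 of the combined group Mdm4 was at 1820.0 normalised counts, and its 4 companions were between 1226 and 1368. Chance alone gives about 1 in 20 such groups. The same tumour held the highest Trp53, Mdm2, Ccng1 and Zmat3 values of its group.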

How the results depend on the processing

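Over 15 settings and 20 fits leaving out 1 library each, 0 of the tested members passed in the 4 comparisons of 2 groups. The same held over 14 settings and the 20 fits for the averaged and interaction comparisons, where the fit of 2 groups alone cannot be made. The letrozole difference of Hipk2 ran from 0.98 to 1.20 log2 units over both arms. The count of p53 targets called for letrozole averaged over both arms was 1, and became 2 with quantile normalisation, 6 with array weights, 5 by DESeq2, 6 without vehicle replicate 3 and anti-PD-1 replicate 1, and 1 to 3 leaving out 1 library (3 without anti-PD-1 replicate 1 or letrozole + anti-PD-1 replicate 1, 2 without vehicle replicate 3 or 4). For letrozole against vehicle the count went from 0 to 1 with array weights and with the 2 groups alone, and for letrozole + anti-PD-1 against anti-PD-1 from 0 to 1 by DESeq2. With the replicate number as a block the averaged count was 2; the numbers did not pair the tumours, since r between same-numbered tumours ran from -0.344 to 0.196 over 30 pairs and 1 of 20 libraries correlated best with its own number. The count over all genes for letrozole against vehicle was 190, and 126 with no filter, 732 with array weights, 622 by DESeq2, 1131 without the 2 libraries that stand apart and 85 to 814 leaving out 1 library (814 without vehicle replicate 3). In the anti-PD-1 arm it was 213, and 110.0 with no filter, 60.0 with the 2 groups alone, 521 by DESeq2 and 72 to 263 leaving out 1 library (72 without anti-PD-1 replicate 4). Averaged over both arms it was 1389, and 2575 with array weights, 1966 by DESeq2 and 2469 without the 2 libraries. Leaving out 1 library it was 936 to 2336 (2336 without vehicle replicate 3).

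Signs reversed for differences that lay between -0.24 and 0.20 log2 units as reported; those of tested genes passed in no setting. Without vehicle replicate 3 and anti-PD-1 replicate 1, anti-PD-1 against vehicle was 0.080 for Hipk1, 0.057 for Hipk2 and -0.045 for Cdkn1a, the interaction was -0.029 for Hipk2, -0.055 for Hipk3, -0.019 for Mdm4 and 0.007 for Cdkn1a, letrozole against vehicle was -0.009 for Trp53, and averaged letrozole was -0.008 for Zmat3. With array weights, anti-PD-1 against vehicle was 0.035 for Hipk1, the interaction was -0.039 for Hipk3 and -0.011 for Mdm4, and letrozole + anti-PD-1 against letrozole was -0.030 for Ccng1. With library median centring, letrozole against vehicle was -0.002 for Hipk3 and -0.066 for Trp53, and the Hipk1 interaction was 0.035; that interaction was 0.011 with quantile normalisation, 0.004 with summed transcripts and 0.002 by edgeR. By edgeR and DESeq2, Trp53 was -0.008 and -0.008 for letrozole against vehicle, the Ccng1 interaction 0.078 and 0.069, Zmat3 0.013 and 0.004 for letrozole + anti-PD-1 against anti-PD-1, and letrozole + anti-PD-1 against letrozole 0.013 and 0.016 for Cdkn1a and 0.031 and 0.034 for Zmat3.

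Leaving out 1 library, the interaction ran from -0.41 to 0.045 for Ccng1, -0.11 to 0.036 for Hipk1, -0.052 to 0.14 for Hipk2, -0.039 to 0.097 for Hipk3, -0.052 to 0.21 for Mdm2 and -0.050 to 0.14 for Mdm4. Letrozole + anti-PD-1 against letrozole ran from -0.25 to 0.21 for Ccng1, -0.13 to 0.11 for Cdkn1a, -0.065 to 0.10 for Hipk2, -0.069 to 0.097 for Trp53 and -0.25 to 0.13 for Zmat3. Letrozole + anti-PD-1 against anti-PD-1 ran from -0.073 to 0.38 for Ccng1, -0.11 to 0.22 for Cdkn1a and -0.27 to 0.10 for Zmat3. Anti-PD-1 against vehicle ran from -0.095 to 0.052 for Hipk1 and -0.11 to 0.072 for Hipk2, letrozole against vehicle from -0.027 to 0.029 for Trp53, and averaged letrozole from -0.035 to 0.15 for Zmat3. The causes were not tested.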
